A study of Mus musculus with 2 samples.

Results

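The ligands and receptors of the tumor necrosis factor (TNF) superfamily were followed in stromal cells of the mouse colon. Members were taken by symbol from the gene rows of both count matrices: the numbered Tnfsf and Tnfrsf genes together with Tnf, Lta, Ltb, Ltbr, Fas, Fasl, Cd40 and Ngfr. This gave 39 genes of 33696 features. The control library came from mice with floxed Il10ra alleles (Il10ra_ff), with no Cre in the label, and the Cre library from mice with the same floxed alleles and a Pdgfra-driven Cre (Il10ra_ff_Pdgfra_cre). According to the design text, each genotype was represented by 2 mice aged 6 months. Whole colons were sorted for viable, Podoplanin-positive stromal cells free of the leukocyte, endothelial and epithelial markers CD45, CD31 and EpCAM, and each genotype gave 1 library. No test between genotypes was therefore possible, no p-value is given, and the intervals below are 95% intervals for counting error only. The floxed alleles are present in both libraries, and the Pdgfra promoter limits the Cre to cells in which that promoter is or has been active. Fewer transcribing cells and less RNA per cell are not told apart by a level over summed cells.

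TNF superfamily ligands are mostly trimeric proteins of the cell surface that can be shed, and they act by clustering receptors. Receptors with a death domain can recruit caspases, most other receptors recruit TRAF adaptors and turn on NF-kappaB, and decoy receptors bind a ligand without passing on its signal. In the gut wall, stromal cells receive TNF and lymphotoxin from leukocytes and are themselves a source of ligands such as BAFF, the B cell survival factor encoded by Tnfsf13b.

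The matrices hold counts of unique molecular identifiers (UMIs), each standing for 1 captured transcript start. Levels are given as CPM, the UMIs of a gene scaled to a fixed total per class, not divided by transcript length, so they are compared between libraries and classes and not between genes. Barcodes numbered 11380 for the control (median 6505 UMIs) and 8627 for the Cre library (median 7332 UMIs). The libraries shared 115 barcodes. After filtering, 10657 control and 8302 Cre cells remained, of which 9713 and 7827 were fibroblast-like. Pdgfra stood at 362.5 and 353.6 CPM in these fibroblast-like cells. Il10ra itself had 1 UMI in control and 5 in Cre fibroblast-like cells, too few to check its deletion.

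Cells were divided into 20 clusters, of which 13 were fibroblast-like. Markers named 1 of these subepithelial (1177 control and 468 Cre cells), 5 lamina propria (4937 and 2568 cells) and 3 adventitial (2714 and 1629 cells). The other 4, with 885 and 3162 cells, had fewer than 3 enriched markers of any fibroblast class and are called other fibroblasts. Clusters 2 (leading genes Npy1r and Chrdl1) and 6 (Myoc and Wt1) hold most of these cells and came mostly from the Cre library. Within the lamina propria class, clusters 0, 3 and 10 hold most control cells and cluster 1 most Cre cells. Cluster 10 had 3 enriched lamina propria and 4 enriched subepithelial markers and only 15 Cre cells, so results that rest on it are also given without it. The lamina propria class gave 56.18% of the fibroblast UMIs of the control library and 31.11% of those of the Cre library, and the other fibroblasts 8.192% and 45.31%. A level over all fibroblast-like cells therefore mixes classes in different proportions in the 2 libraries.

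A gene was called measured with a mean of at least 2 CPM over the libraries and at least 50 UMIs over both, and called higher or lower at a fold of at least 1.5 with 0.5 CPM added. In fibroblast-like cells 16 of the 39 members were measured. Of these, 2 were higher in the Cre library (Tnfsf10 and Tnfrsf11b) and 1 was lower (Cd40). Among all 12490 measured genes 5.1% were higher and 4.24% lower, 9.34% in all. With cluster 10 left out, 0 members were higher and 0 lower: the log2 ratios of Tnfrsf11b and Cd40 were 0.52 and -0.56, and Tnfsf10 no longer reached the minimum level. The median log2 ratio of Cre over control was 0.09 for the measured members and -0.04 for all measured genes.

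In subepithelial cells 1 of 15 measured members was higher (Tnfsf13b) and 3 were lower (Tnfsf15, Tnfrsf22 and Tnfsf9), where 6.43% of all measured genes were higher and 4.93% lower (11.4% in all). Among lamina propria cells 3 of 16 were higher (Tnfsf10, Tnfrsf14 and Fas) and 2 lower (Cd40 and Tnfsf9), against 8.13% and 4.74% of all genes (12.9% in all). In adventitial cells 2 of 13 were higher (Tnfsf13b and Tnfrsf11b) and 1 was lower (Cd40), against 8.79% and 2.87% of all genes (11.7% in all). Median log2 ratios of the measured members were 0.09, 0.04 and 0.10 in these classes, beside 0.05, 0.07 and 0.08 for all genes. The members' medians thus lay close to those of all genes, and the calls fell on single members. Because the minimum can be reached through 1 library alone, these counts describe the members that passed it and not the whole family.

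**Figure D1:**
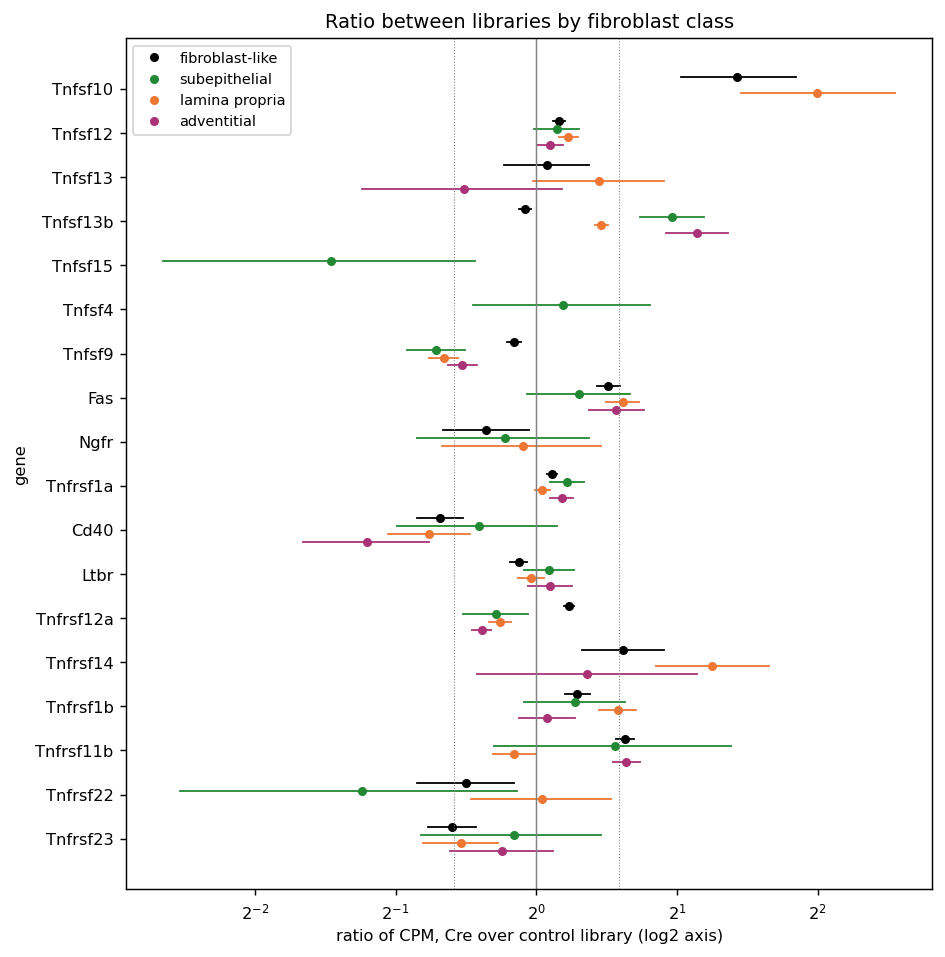
Ratio of CPM, Cre over control library, on a log2 axis for the 18 members measured in all fibroblast-like cells or in a class. Points are ratios in all fibroblast-like cells (black) and in 3 classes (colors), lines are 95% counting intervals, and dotted lines mark 1.5-fold. Tnfsf13b lies above 1 in each of the 3 classes and just below 1 over all fibroblast-like cells, while Cd40 lies below 1 in all 4.

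Tnfsf13b (BAFF, ENSMUSG00000031497) differed in direction between pooled cells and classes. Over all fibroblast-like cells it stood at 152.65 CPM in control against 144.3 CPM in Cre cells, giving a ratio of 0.945 (interval 0.919 to 0.973). Within every named fibroblast class it was higher in the Cre library. In lamina propria cells, where it was highest, the level was 250.9 CPM in control against 345.7 CPM in Cre cells, giving a ratio of 1.38 (1.33 to 1.42), below the 1.5-fold threshold. In subepithelial cells it was 44.57 and 86.995 CPM, a ratio of 1.95 (1.67 to 2.28). In adventitial cells it was 17.86 and 39.48 CPM, a ratio of 2.21 (1.90 to 2.58). With the 3 named classes weighted alike in both libraries, the log2 ratio was 0.59 in place of -0.08, and with all 4 fibroblast classes at the control library's shares it was 0.52. The pooled level thus went the other way from its parts, in step with the smaller share of lamina propria cells in the Cre library.

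The difference was uneven among clusters. In the 3 adventitial clusters the ratios for Tnfsf13b were 2.19, 2.35 and 1.66, and in cluster 2 of the other fibroblasts the level was 27.94 CPM in control against 88.65 CPM in Cre cells, giving a ratio of 3.17 (2.34 to 4.41). In cluster 6 the ratio was 1.12 (0.841 to 1.52) and in cluster 12 it was 1.11 (0.684 to 1.86). Among lamina propria clusters the ratios were 1.02 in cluster 0, 1.03 in cluster 3, 0.895 in cluster 11 and 1.17 (1.04 to 1.32) in cluster 1. The lamina propria clusters with the highest level therefore differed little between the libraries, and much of the class ratio went with which clusters held the cells: cluster 10 (695 control and 15 Cre cells) stood at 120.3 CPM in the control, and without it the log2 ratio of the class was 0.30 in place of 0.46. Of 11 fibroblast clusters with at least 50 UMIs of Tnfsf13b, 6 had an interval above 1 and 0 had one below.

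**Figure D2:**
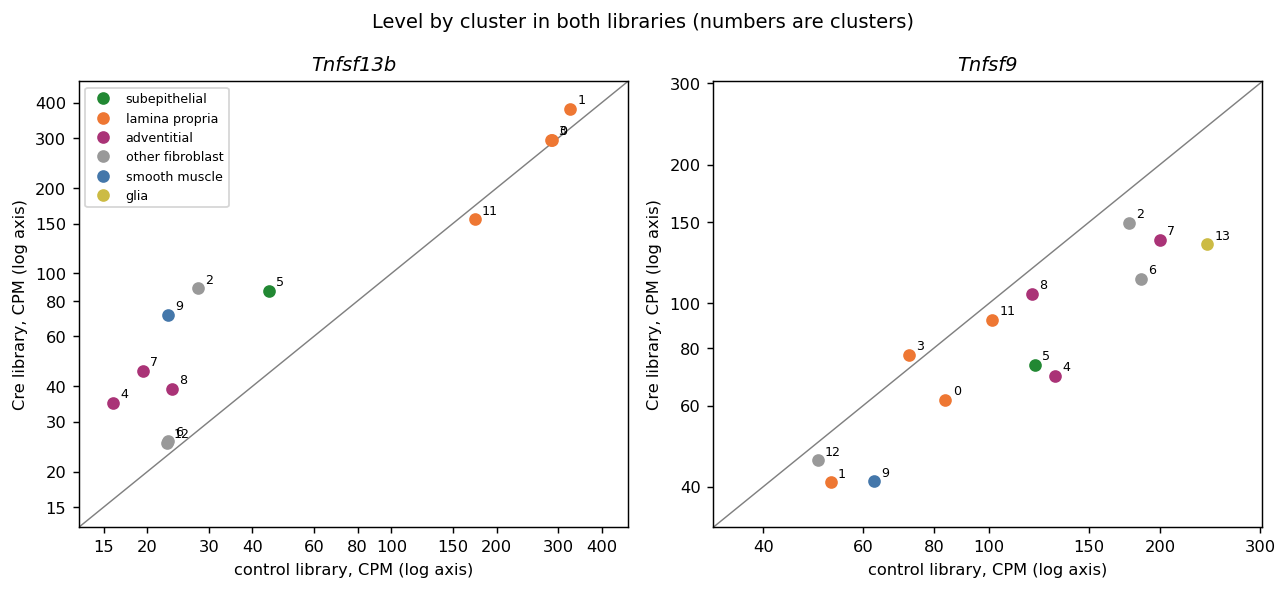
Level of Tnfsf13b (left) and Tnfsf9 (right) in each cluster, control library on the x axis and Cre library on the y axis, in CPM on log axes. Each numbered point is a cluster with at least 40 cells per library and 50 UMIs of the gene, colored by class, and the line marks equal levels. For Tnfsf13b the adventitial clusters, cluster 2, cluster 5 and the smooth muscle cluster 9 lie above the line and lamina propria clusters lie near it, and for Tnfsf9 every point but that of cluster 3 lies below the line.

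Tnfsf13b also differed in cells outside the fibroblast classes. In smooth muscle-like cells it stood at 22.84 CPM in control against 71.31 CPM in Cre cells, giving a ratio of 3.12 (2.32 to 4.19). In glia-like cells its UMIs numbered 1 among 79 control cells against 16 among 123 Cre cells. In mesothelium-like cells the levels were 27.2 and 25.24 CPM, from 17 and 14 UMIs. As a share of the lamina propria level of the same library, the adventitial level of Tnfsf13b went from 7.12% in the control to 11.42% in the Cre library, the smooth muscle level from 9.101% to 20.63% and the glial level from 1.15% to 7.228%. The corresponding adventitial shares of 9 lamina propria markers moved both ways: they were 1.524% and 2.376% for Adamdec1, 1.193% and 2.441% for Edil3, 13.82% and 17.94% for Tcf21, 92.51% and 92.81% for Fabp5, but 3.97% and 3.466% for Frmpd4, 12.97% and 3.649% for Cxcl13, 0.933% and 0.7648% for Hcar2, 1.201% and 0.9896% for Agt, and 66.5% and 63.05% for Fgfr2. In smooth muscle-like cells the shares of Adamdec1 (29.03% and 37.86%) and Edil3 (3.661% and 7.676%) were higher in the Cre library, as for Tnfsf13b. So were those of Frmpd4 (6.752% and 10.4%), Cxcl13 (1.605% and 2.803%), Fabp5 (56.63% and 175.1%) and Agt. Those of Tcf21 (49.45% and 47.16%), Fgfr2 (67.01% and 63.59%) and Hcar2 (2.662% and 0%) were lower. Smooth muscle-like cells held more Agt than lamina propria cells in both libraries. In glia-like cells the shares of Adamdec1 (5.481% and 1.426%), Tcf21 (6.691% and 2.34%) and Edil3 (100.1% and 69.99%) were lower in the Cre library. Those of Frmpd4 (2.584% and 3.518%), Fgfr2 (21.83% and 29.38%), Cxcl13 and Fabp5 were higher in glia-like cells, and Hcar2 and Agt had 0 UMIs. The adventitial shares of Hcar2 and Agt rest on 7 and 2 and on 10 and 2 UMIs. The lamina propria level of Cxcl13 was 134.2 and 1377 CPM. In subepithelial cells the shares were 17.76% and 25.17% for Tnfsf13b, 1.339% and 2.241% for Edil3 and 1.935% and 6.379% for Frmpd4. Those of Hcar2 and Fabp5 were also higher there in the Cre library, and those of Adamdec1, Fgfr2, Agt, Cxcl13 and Tcf21 were lower. What free RNA from lamina propria cells added to the low levels was not tested.

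By cells, 73.87% of control and 78.15% of Cre lamina propria cells held a UMI of Tnfsf13b. After thinning each cell to 2000 UMIs, which left out 275 control and 136 Cre cells, the shares were 37.84% and 46.67%. In adventitial cells they were 8.622% (interval 7.593 to 9.742) and 20.99% (19.04 to 23.05), or 3.204% and 7.741% after thinning with 467 and 221 cells left out. In glia, the class in which the gene was lowest in the control, they were 1.266% (0.032 to 6.852) and 7.317% (3.40 to 13.44), at median depths of 4107 and 5056 UMIs against 5306.5 and 6499 in adventitial cells. The adventitial share thus lay above the glial share in both libraries, and both were higher in the Cre library.

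The way cells were assigned decided the direction of Tnfsf13b in 2 classes. When each cell was assigned on its own by its marker scores, without clusters, Tnfsf13b was lower in the Cre library in cells so called subepithelial, at 115.5 and 94.07 CPM (log2 ratio -0.29), and in those called adventitial, at 91.1 and 60.49 CPM (log2 ratio -0.59). Under the other alternatives the direction by clusters stayed, with log2 ratios down to 0.66 and 0.69 when doublets were kept. Of the cells that this gate called subepithelial, 42.58% (control) and 14.89% (Cre) lay in lamina propria clusters, and of those called adventitial 22.64% and 3.448% did. Among cells called lamina propria by this gate the levels were 249.4 and 322.1 CPM, in the same direction as by clusters. Of the kept cells, 2418 (control) and 1161 (Cre) lay near the boundary between 2 fibroblast classes under the gate.

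**Figure D3:**
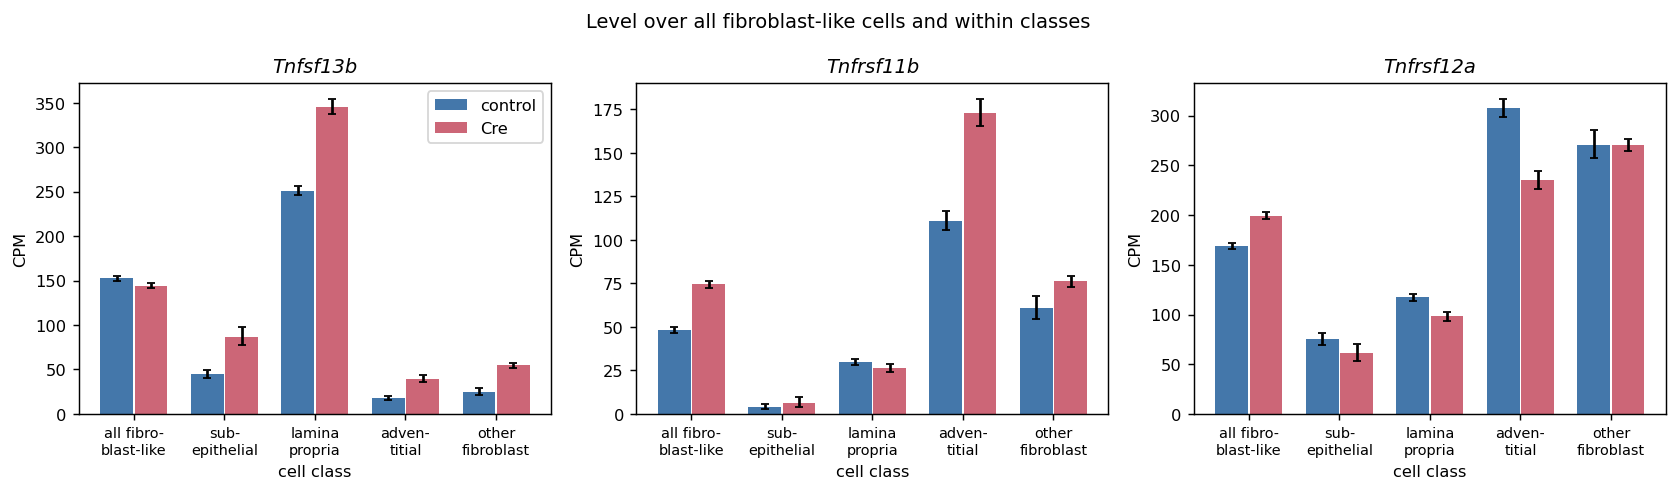
Level in CPM of Tnfsf13b, Tnfrsf11b and Tnfrsf12a over all fibroblast-like cells and within each class, control library in blue and Cre library in red. Bars start at 0 and error bars are 95% Poisson intervals. For Tnfsf13b and Tnfrsf12a the direction over all cells is the opposite of that in the 3 named classes, and for Tnfrsf11b the difference is mainly in adventitial and other fibroblasts.

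Promoter sequence from RefSeq, in build GRCm38.p6, was matched by symbol for 31 of the 39 members, which gave 35 start sites with 250 bases before and 50 after each. These were searched on both strands for the core of the interferon-stimulated response element (GAAA, any 2 bases, GAAA), the gamma-activated site (TTC, any 3 bases, GAA) and a kappaB site (GGGA, any base, TTTCC), because the series' title names type I interferon signalling. The response element core was found in 4 of the 35 member promoters and in 3.443% of 32851 promoters of the same length. The gamma-activated core was found in 9 of 35 and in 8.298% of all, and the kappaB letters in 1 of 35, that of Ltb, and in 0.4109% of all. For the 4 measured members that hold a match and whose interval lay above 1 in lamina propria cells, the 30-base window around it is shown, in lower case with the match in capitals and read along the gene's strand.
Tnfsf13b, chr8:10006603-10006632, plus strand: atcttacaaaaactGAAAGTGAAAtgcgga
Tnfrsf1b, chr4:145246871-145246900, minus strand: cctagctcctggcctgagggTTTCGCTTTC
Tnfrsf14, chr4:154928122-154928151, minus strand: ctattttttcTTTCATTTTCacttttcctt
Fas, chr19:34290555-34290584, plus strand: ttcaaagcgatTTCTGGGAAgacctgaata
The match in Tnfsf13b lies at the second of its listed starts and begins 16 bases before it. Those in Tnfrsf1b and Tnfrsf14 lie on the opposite strand and begin 10 and 64 bases before the start. The window of Fas holds the gamma-activated core, beginning 93 bases before the start. A match is a run of letters and was not shown to be bound. The windows were picked by the ratio of the gene, so whether matches go with a difference between libraries was not tested. Tnfrsf1b also held a gamma-activated core, beginning 181 bases before the start. Gamma-activated cores lay as well in Tnfrsf1a, with a lamina propria ratio of 1.03, and in Tnfrsf19, with a subepithelial ratio of 0.156 from 46 and 3 UMIs. Tnfrsf9, Tnfrsf17, Tnfrsf18, Tnfrsf25, Ltb and Lta, measured in no fibroblast class, held a match as well.

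Tnfsf10 encodes TRAIL, a ligand of death receptors. It was scarce, with 72 UMIs (1.09 CPM) in control and 182 UMIs (2.93 CPM) in Cre fibroblast-like cells, a ratio of 2.69 (2.04 to 3.59). In lamina propria cells it was 1.16 and 4.61 CPM, a ratio of 3.98 (2.74 to 5.87). The UMIs were spread over 41 control and 83 Cre lamina propria cells, with at most 3 in a cell. Of the 89 Cre UMIs of this class 85 lay in cluster 1, where the control had 1 UMI and the ratio was 5.30 (0.926 to 212), and in each cluster of the class 1 library or the other had at most 2 UMIs. In adventitial cells it had 3 and 11 UMIs and in subepithelial cells 19 and 19, or 2.35 and 5.60 CPM. In lymphatic endothelium-like cells, with 45 and 44 cells, it had 4 and 10 UMIs. Its listed promoter held neither motif, which says only that those letters are not in that window. In lamina propria cells the gene stayed called under every alternative in which it was measured, with log2 ratios from 1.37 to 1.90. Over all fibroblast-like cells it was measured under 12 of 17 settings. It fell below the minimum at 10 CPM, with doublets kept, by the per-cell gate, without cells holding leukocyte or erythrocyte UMIs, and without cluster 10. Its mean reached 2 CPM only through the Cre library, so being called wherever measured is no separate support.

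Tnfsf9 encodes the ligand of the costimulatory receptor Tnfrsf9. Over all fibroblast-like cells it stood at 105.3 CPM in control against 94.39 CPM in Cre cells, giving a ratio of 0.896. Within the classes the difference was larger. In subepithelial cells it was 120.25 and 73.43 CPM, a ratio of 0.611 (0.529 to 0.703), in lamina propria cells 78.08 and 49.46 CPM, a ratio of 0.634 (0.588 to 0.682), and in adventitial cells 148.8 and 103.3 CPM, a ratio of 0.694 (0.647 to 0.746). It was lower in 10 of 11 fibroblast clusters, with an interval below 1 in 6. In lamina propria clusters 0 and 1 the ratios were 0.738 (0.580 to 0.927) and 0.777 (0.582 to 1.06). In clusters 11 and 3 they were 0.909 (0.739 to 1.12) and 1.07 (0.717 to 1.54). Each of these ratios lay above that of the lamina propria class, and none reached 1.5-fold. By the per-cell gate the differences were smaller, with log2 ratios of -0.14 in subepithelial and -0.41 in lamina propria cells against -0.71 and -0.65 by clusters. In adventitial cells the log2 ratio of -0.52 was -0.16 by the gate, -0.18 with the looser cell filter and -0.30 at resolution 2. It was -0.31 with scaling within libraries and with doublets kept, -0.32 with 2 enriched markers and -0.41 with the libraries clustered separately. The adventitial direction stayed the same, and the size did not. Lower levels were also seen in smooth muscle-like cells, at 62.69 and 41.11 CPM, and in glia-like cells, at 242.4 and 134.3 CPM. The lower level in the Cre library was thus also seen outside the fibroblast classes.

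Beside Tnfsf9, 40 immediate early and heat shock genes that respond to cell handling were summarised. In subepithelial cells 19 of them were lower in the Cre library and 1 was higher, with a median log2 ratio of -0.54. Among lamina propria cells 6 were lower and 1 higher, with a median of -0.29, and in adventitial cells 1 was lower and 4 were higher, with a median of -0.03. Of all measured genes in these 3 classes, 4.93%, 4.74% and 2.87% were lower and 6.43%, 8.13% and 8.79% higher. Their median log2 ratios were 0.05, 0.07 and 0.08. The part of handling in the difference of Tnfsf9 was not tested.

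Tnfsf12 encodes TWEAK, the ligand of Fn14. It stood at 138.6 and 154.8 CPM over all fibroblast-like cells, a ratio of 1.12 (1.09 to 1.15). Its ratios were 1.11, 1.17 and 1.07 in subepithelial, lamina propria and adventitial cells, and each of 11 fibroblast clusters had an interval that held 1. It was also present in smooth muscle-like cells, at 179 and 207.2 CPM, and in glia-like cells, at 124.1 and 110.9 CPM. In mesothelium-like cells its level was below these, at 38.4 and 70.32 CPM, a ratio of 1.83 (1.07 to 3.18) from 24 and 39 UMIs. Tnfsf13, which encodes APRIL, a relative of BAFF, adjoins Tnfsf12, and reads of the joined transcript of both could be counted under either. Its levels in fibroblast-like cells were 2.81 and 2.96 CPM, and the mesothelium-like cells held more of it, at 75.19 and 41.47 CPM.

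Tnfsf15 and Tnfsf4 were measured in subepithelial cells alone among the named fibroblast classes. Tnfsf15, the ligand of death receptor Tnfrsf25, had 59 UMIs (7.28 CPM) in control and 9 UMIs (2.65 CPM) in Cre subepithelial cells, a ratio of 0.364 (0.159 to 0.740). By the per-cell gate its log2 ratio was -0.49 against -1.30 by clusters. In adventitial cells it had 2 and 14 UMIs. In mesothelium-like cells it had 1 and 32 UMIs, of which 29 came from 1 cell. Tnfsf4, a costimulatory ligand for T cells, stood at 8.52 and 9.73 CPM in subepithelial cells, a ratio of 1.14 (0.731 to 1.75).

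Among receptors with a death domain, Tnfrsf1a, the main receptor of TNF, was present in every fibroblast class. It stood at 200.2 and 216.8 CPM over all fibroblast-like cells, a ratio of 1.08 (1.06 to 1.11). The ratios were 1.17 in subepithelial, 1.03 in lamina propria and 1.13 in adventitial cells. In smooth muscle-like cells it was 179 and 172 CPM and in glia-like cells 158.7 and 146.8 CPM. None of the named fibroblast classes reached 1.5-fold for this receptor.

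Fas, the receptor of Fas ligand, stood at 32.79 and 46.76 CPM over all fibroblast-like cells, a ratio of 1.43 (1.35 to 1.51). The lamina propria level was 36.52 and 55.94 CPM, a ratio of 1.53 (1.41 to 1.66), and in adventitial cells 27.44 and 40.73 CPM, a ratio of 1.48 (1.30 to 1.70). In subepithelial cells it was 22.96 and 28.31 CPM, a ratio of 1.23 (0.953 to 1.59). It was higher in 10 of 11 fibroblast clusters, with an interval above 1 in 4. Its call in lamina propria cells lay just past the threshold and ended under 4 alternatives: the log2 ratio was 0.61 as reported, 0.58 at resolution 2, 0.54 centred on the median gene, 0.51 by the per-cell gate and 0.46 with the libraries clustered separately. In lamina propria clusters 0 and 1, which hold most of the class in each library, the ratios were 0.997 and 1.13, both with intervals that held 1, and cluster 3 had a ratio of 2.05 (1.34 to 3.01) from 27 Cre UMIs.

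Ngfr, the low-affinity neurotrophin receptor, was highest in glia-like cells, at 89.44 CPM (31 UMIs) and 74.96 CPM (48 UMIs). In subepithelial cells it was 10.99 and 9.44 CPM. The interval of the ratio held 1 in subepithelial cells (0.555 to 1.30). Tnfrsf10b, the mouse receptor of TRAIL, stayed under the minimum in fibroblast-like cells, with 116 and 130 UMIs. Lamina propria cells held 50 UMIs (1.35 CPM) of it in the control and 8 UMIs (0.414 CPM) in the Cre library, and adventitial cells 20 and 16 UMIs.

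Among the other receptors, Cd40, which is engaged by CD40 ligand on T cells, was called lower in pooled, lamina propria and adventitial cells. It stood at 12.41 and 7.73 CPM over all fibroblast-like cells, a ratio of 0.623 (0.556 to 0.699). The lamina propria class had a level of 11.39 and 6.73 CPM, a ratio of 0.591 (0.482 to 0.721). In adventitial cells it was 11.65 and 5.07 CPM, a ratio of 0.435 (0.317 to 0.589). In subepithelial cells it was 14.08 and 10.62 CPM, a ratio of 0.754 (0.504 to 1.11). The interval was below 1 in 3 of 8 fibroblast clusters, and 7 of the 8 had a ratio under 1. Cluster 12, led by Kcnn3, held the highest level of the 8, at 52.66 and 42.52 CPM. With classes weighted alike the pooled log2 ratio was -0.69, against -0.65 unweighted. Without cluster 10 the log2 ratio was -0.56 over all fibroblast-like and -0.49 in lamina propria cells, and both calls ended. The adventitial call ended by the per-cell gate, at -0.58 against -1.13.

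Tnfrsf12a (Fn14) behaved like Tnfsf13b in that pooled cells and classes differed in direction. Over all fibroblast-like cells it stood at 169.2 and 199.1 CPM, a ratio of 1.18 (1.15 to 1.21). In subepithelial cells it was 74.94 and 61.34 CPM, a ratio of 0.818, in lamina propria cells 117.3 and 98.25 CPM, a ratio of 0.837, and in adventitial cells 307.8 and 235.1 CPM, a ratio of 0.764 (0.728 to 0.801). None of these reached 1.5-fold. The clusters of a class did not all share its direction. The adventitial clusters 4, 7 and 8 had ratios of 0.944 (0.875 to 1.02), 0.984 (0.900 to 1.07) and 0.781 (0.696 to 0.879), all above the ratio of the class, and by the per-cell gate the adventitial log2 ratio was -0.03 against -0.39. Of the lamina propria clusters, cluster 1 had a ratio of 1.29 (1.02 to 1.65), clusters 0 and 11 had 0.888 and 0.809, and cluster 3 had 0.986. In the other fibroblasts it was 270.9 and 270.5 CPM. The Cre library had more of its fibroblast UMIs in these cells, in which the gene was high, and with classes weighted alike the pooled log2 ratio was -0.34 in place of 0.23. In subepithelial cells the log2 ratio was -0.29 by clusters, -0.04 with doublets kept and 0.51 by the per-cell gate. In smooth muscle-like cells Tnfrsf12a stood at 107.7 and 48.66 CPM, a ratio of 0.452 (0.338 to 0.594), and in glia-like cells at 340.5 and 238.9 CPM.

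Tnfrsf1b, the second TNF receptor, stood at 28.82 and 35.25 CPM in fibroblast-like cells, a ratio of 1.22. Its lamina propria level was 30.003 and 44.802 CPM, a ratio of 1.49 (1.36 to 1.63), just under the threshold, while in adventitial cells it was 31.00 and 32.73 CPM, a ratio of 1.06 (0.919 to 1.21). It passed the threshold at resolution 2 (log2 ratio 0.67), with the libraries clustered separately (0.64) and without cluster 10 (0.61). Within lamina propria clusters 0, 1, 3 and 11 the ratios were 1.246, 0.911, 1.14 and 1.20, and all 4 intervals held 1. Cluster 1 held most Cre cells and had the highest control level of these, 50.5 CPM. The lamina propria ratio therefore exceeded that within 3 of its clusters and ran against that of cluster 1. In adventitial clusters 4, 7 and 8 the ratios were 1.236 (1.011 to 1.503), 1.125 (0.767 to 1.637) and 1.429 (1.015 to 2.051). All lay above the ratio of the adventitial class. Of 10 fibroblast clusters, 4 had an interval above 1 for Tnfrsf1b and 0 had one below.

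Tnfrsf14, the receptor of the ligand Tnfsf14, stood at 2.56 and 3.92 CPM in fibroblast-like cells. In lamina propria cells it was 2.61 CPM (97 UMIs) and 6.22 CPM (120 UMIs), a ratio of 2.38 (1.81 to 3.14). In cluster 1 alone the ratio was 2.14, but with 3 control UMIs its interval ran from 0.713 to 10.55. In adventitial cells it was 2.01 and 2.58 CPM, with an interval that held 1. Ltbr, the lymphotoxin beta receptor, which is needed for lymphoid tissue formation, was at 73.82 and 67.72 CPM in fibroblast-like cells. Its ratios were 1.065 in subepithelial, 0.973 in lamina propria and 1.070 in adventitial cells, and each interval held 1. With classes weighted alike the pooled log2 ratio of Ltbr was 0.05 in place of -0.12. Each of 11 fibroblast clusters had an interval for Ltbr that held 1.

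The decoy receptor Tnfrsf11b, which encodes osteoprotegerin and binds RANKL and TRAIL, was higher in adventitial than in the other named fibroblast classes in both libraries. Over all fibroblast-like cells it stood at 48.04 and 74.44 CPM, a ratio of 1.55 (1.48 to 1.62). In adventitial cells it was 110.9 and 172.96 CPM, a ratio of 1.56 (1.46 to 1.66), and in subepithelial cells 4.20 and 6.19 CPM, a ratio of 1.48 (0.814 to 2.62). In lamina propria cells it was 29.55 and 26.52 CPM, a ratio of 0.898 (0.807 to 0.998). By cluster the ratio was 1.81 (1.64 to 2.00) in cluster 4, 1.33 in cluster 7, 1.24 in cluster 8 and 1.69 in cluster 6, but 0.646 (0.541 to 0.775) in cluster 2. The lamina propria clusters differed among themselves, with ratios of 0.529 (0.385 to 0.744) in cluster 1, 0.944 (0.678 to 1.32) in cluster 11, 1.15 (0.785 to 1.64) in cluster 0 and 1.54 (0.965 to 2.33) in cluster 3. Its level in mesothelium-like cells was 160 CPM (control) and 110 CPM (Cre).

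The call of Tnfrsf11b in adventitial cells ended under several other class definitions. The log2 ratio was 0.64 as reported, 0.47 at resolution 2, 0.56 centred on the median gene, 0.17 with genes scaled within each library, 0.10 with the looser cell filter, 0.48 with libraries clustered separately and 0.33 by the per-cell gate. When 2 enriched markers sufficed to name a cluster, clusters 2, 6 and 14 joined the adventitial class and the log2 ratio was 0.08. With classes weighted alike the pooled log2 ratio was 0.50, also under the threshold. The direction stayed the same under all of these, and the size did not.

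Tnfrsf22 and Tnfrsf23 are decoy receptors of TRAIL in the mouse. They lie next to each other and to Tnfrsf26 and are alike in sequence, so the split of reads among them is uncertain. Tnfrsf23 stood at 11.1 and 7.33 CPM in fibroblast-like cells, a ratio of 0.660 (0.586 to 0.743). The ratio was 0.690 (0.572 to 0.829) in lamina propria, 0.896 (0.568 to 1.38) in subepithelial and 0.844 (0.653 to 1.09) in adventitial cells. Its pooled log2 ratio was -0.30 with classes weighted alike, against -0.57 unweighted. Of 9 fibroblast clusters, 3 had a ratio above 1 and 6 below, and 7 intervals held 1. Tnfrsf22 stood at 2.71 and 1.92 CPM in fibroblast-like cells. In subepithelial cells Tnfrsf22 had 45 and 8 UMIs, a ratio of 0.425 (0.173 to 0.910) that was smaller by the per-cell gate (log2 ratio -0.35 against -1.08), and in lamina propria cells its ratio was 1.03 (0.725 to 1.44).

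**Figure D4:**
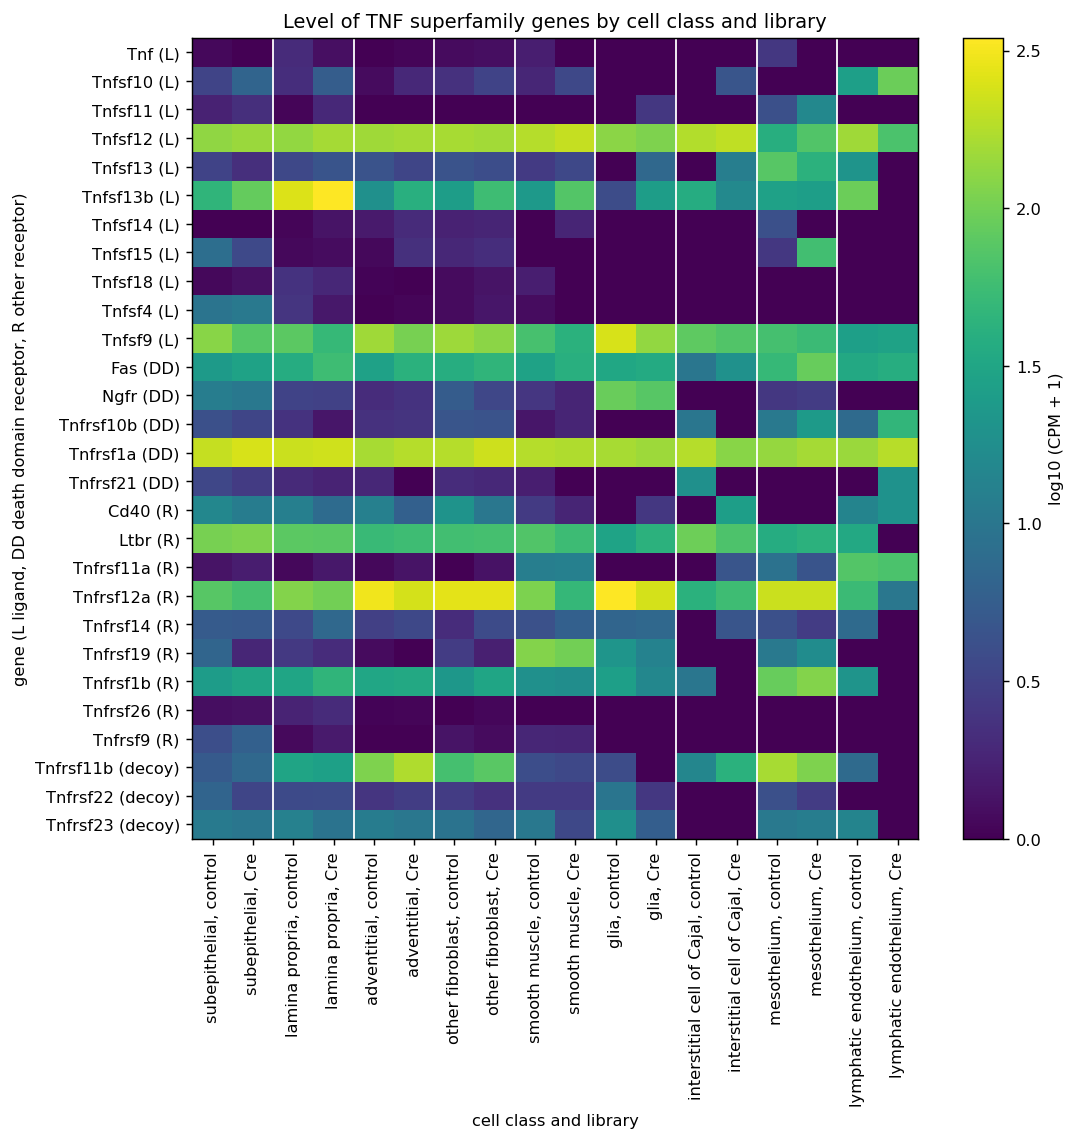
Level of each member with at least 50 UMIs over all kept cells, as log10 of CPM plus 1, by cell class and library. Rows are genes with their role and columns are classes, control beside Cre. Tnfsf13b is brightest in lamina propria cells, Tnfrsf11b in adventitial and mesothelium-like cells, Ngfr in glia-like cells and Tnfrsf19 in smooth muscle-like cells, in both libraries.

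The remaining 21 members were measured in neither the pooled fibroblasts nor a named class, and had between 1 and 246 UMIs in fibroblast-like cells over both libraries. Tnf UMIs numbered 41, from 30 cells, in control fibroblasts and 13, from 13 cells, in Cre fibroblasts, most of the former (39) in lamina propria cells. Tnfsf14 had 15 and 42 UMIs, and Tnfsf11, which encodes RANKL, had 9 and 23. The 25 UMIs of Tnfsf8 in the Cre library came from 9 cells, and 10 of them from 1 cell. Lta had 1 and 0 UMIs, Ltb 2 and 7, and Fasl 2 and 6. The ligands of Ltbr and Fas were thus near 0 in cells that held the receptors.

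The BAFF and APRIL receptors Tnfrsf13b, Tnfrsf13c and Tnfrsf17 had 3 and 6, 2 and 2, and 6 and 2 UMIs in fibroblast-like cells. These are receptors of B lineage cells, most of which carry the CD45 that the sort gated out. Ltb had 13 and Tnfsf11 17 UMIs in the 14 leukocyte-like Cre cells, all 17 from 1 cell, and the control library held 2 such cells. Tnfrsf19, a receptor without a settled ligand, had 541 and 118 UMIs in smooth muscle-like cells, or 116.5 and 98.99 CPM. Tnfrsf11a, the receptor of RANKL, had 52 and 14 UMIs there, or 11.2 and 11.74 CPM, and 11 and 7 UMIs in lymphatic endothelium-like cells. Tnfrsf9 had 25 and 17 UMIs in subepithelial cells. Tnfrsf19 had 46 and 3 UMIs in these cells. The others stayed low in fibroblast-like cells, with 77 and 48 UMIs of the death domain receptor Tnfrsf21, 53 and 29 of the ligand Tnfsf18, 32 and 25 of Tnfrsf26, and between 8 and 21 per library of Tnfrsf4, Tnfrsf8, Tnfrsf18 and Tnfrsf25.

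RNA of other cells was present at different levels in the libraries. The summed level of 11 leukocyte markers was 24.98 CPM in control and 17.98 CPM in Cre fibroblast-like cells, of which Jchain made up 18.79 and 7.186 CPM, with Cd3e and S100a9 at 0 in the control. The summed level of 3 hemoglobin genes was 0.469 and 92.02 CPM, and in lamina propria cells 0.4579 and 287.1 CPM. With every cell holding a UMI of 8 leukocyte and erythrocyte genes left out, 0 of 59 log2 ratios of members moved out of their counting intervals. The counts of called members did change. In fibroblast-like cells 1 was higher in place of 2 and 2 were lower in place of 1, and in lamina propria cells 1 was lower in place of 2. Leaving out these cells does not remove free RNA from the cells kept.

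Genes downstream of the receptors were taken from lists that were chosen with earlier results of these data known. Of 36 signalling components 35 were measured in fibroblast-like cells. In the Cre library 2 were higher and 0 lower, where 5.1% of all measured genes were higher and 4.24% lower. The components called higher were Birc3, an inhibitor of apoptosis, at 78.18 and 124.7 CPM, and Mlkl, the effector of necroptosis, at 11.15 and 17.90 CPM. Map3k14, the kinase of the noncanonical NF-kappaB pathway, had a ratio of 0.862 (0.796 to 0.932). The median log2 ratio of the list was 0.01, beside -0.04 for all measured genes.

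Of 14 NF-kappaB feedback genes, all measured, 3 were higher and 0 lower in fibroblast-like cells, against 5.1% and 4.24% of all measured genes. Tnip1, a partner of the ubiquitin editor A20, stood at 26.60 and 49.11 CPM, a ratio of 1.85 (1.74 to 1.96), and Nfkbiz, a nuclear IkappaB protein, at 238.1 and 408.7 CPM, a ratio of 1.72 (1.68 to 1.75). Nfkbid and Otulin had the lowest ratios, at 0.814 (0.705 to 0.940) and 0.918 (0.853 to 0.988). In subepithelial cells the list went otherwise, with 1 higher (Nfkbie) and 3 lower (Nfkbid, Tnfaip3 and Nfkbia), against 6.43% and 4.93% of all genes. These stood beside the lower handling genes described above, a list that also holds Nfkbia. The median log2 ratio of the feedback genes was 0.27 in fibroblast-like and -0.02 in subepithelial cells.

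Of 26 genes that TNF or lymphotoxin can induce, 20 were measured in fibroblast-like cells, 14 were higher and 1 was lower, with a median log2 ratio of 0.88, where 5.1% of all measured genes were higher and 4.24% lower. Lcn2, an iron-binding protein of the innate response, had 3 UMIs (control) against 551 (Cre), a ratio of 196 (66.6 to 951), and Cxcl5, a neutrophil chemokine, stood at 3.54 and 42.62 CPM, a ratio of 12.0 (10.5 to 13.8). Ptgs2, the inducible cyclooxygenase, was lower, at 356.75 and 186.5 CPM, and Csf1, a macrophage growth factor, had a ratio of 0.863. Other stimuli, interferons among them, induce many of these genes. Because the list was chosen with earlier results of these data known, its counts describe it and are no test. Cxcl13, called higher in pooled cells and in each named class, is also a marker used to name lamina propria clusters. With the classes weighted alike 7 of the list were higher and 3 lower, and with cluster 10 left out 0 were lower. In subepithelial cells 7 of 17 were higher and 4 lower, against 6.43% and 4.93% of all genes. In lamina propria cells 11 of 20 were higher and 1 lower, against 8.13% and 4.74%, and in adventitial cells 5 of 19 were higher and 4 lower, against 8.79% and 2.87%. The neutrophil chemokines Cxcl1 and Cxcl2 were among those higher in pooled cells, at ratios of 1.95 and 1.90, but both were lower in subepithelial cells (0.585 and 0.612), and Cxcl2 was higher in lamina propria cells (1.88) and lower in adventitial cells (0.306).

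Of 7 superfamily genes that carry other symbols, 3 were measured in fibroblast-like cells and none reached 1.5-fold. Eda, the ectodysplasin ligand, stood at 73.02 and 60.08 CPM, and Eda2r, which binds one of its isoforms, at 11.17 and 13.34 CPM. Relt had a ratio of 0.780 (0.651 to 0.932). Within classes, Relt was called lower in lamina propria cells, at 4.55 CPM (control) and 2.54 CPM (Cre), a ratio of 0.558 (0.397 to 0.770), and Edar, the receptor of ectodysplasin, was called higher in subepithelial cells, at 9.01 and 15.63 CPM, a ratio of 1.73 (1.19 to 2.50). Cd40lg had 0 UMIs in either library.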

How the data were processed

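Libraries came from the 10x Genomics 5' kit, per the labels' protocols. The authors deposited raw UMI counts. Cell Ranger 8.0.1 and build GRCm39 are given in the submitters' processing notes. For 26 repeated symbols among 33696 features only the row listed first entered. Per-sample columns left unused numbered 0. The members and lists were chosen with earlier results of these data known.

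A barcode needed 500 detected genes and no more than 10% of mitochondrial UMIs (330 control and 214 Cre barcodes failed). Doublets were called with Scrublet (scanpy 1.11.5, expected rate 8%), which removed 393 and 111 barcodes at score limits of 0.326 and 0.404. The libraries totalled 76570611 and 66845139 UMIs. They were clustered jointly (2000 variable genes without superfamily members or interferon, MHC, stress and cell cycle genes; 30 components; 15 neighbours; resolution 1; leidenalg 0.10.2). Types other than fibroblasts needed 3 fixed markers among a cluster's top 30 genes, and a fibroblast class 3 markers enriched 1.5-fold. The naming rule was settled after the clusters had been seen. A limit of 2 markers, the removal of cluster 10, weighting by control shares, the handling genes and the comparison of free RNA were also chosen after seeing the data. The per-cell gate took each cell's highest marker score.

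UMIs were summed by class in each library and expressed as CPM. Ratios carry exact binomial (Clopper-Pearson) and levels exact Poisson intervals at 95%, which cover counting error only. Values are given for members reaching 2 CPM on average and 50 UMIs, other members by UMIs or as a group, and for the 2 highest and 2 lowest of each other list. A result that this rule would name is not reported here. The calculation was tested on simulated counts.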

Additional observations from a re-analysis of the deposited data

Results flagged for a closer look

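Tnfrsf11b had counting intervals on opposite sides of 1 in 2 classes: the ratio of Cre over control CPM was 1.559 in adventitial cells and 0.8975 in lamina propria cells. The lamina propria clusters did not share 1 direction, with ratios from 0.5294 in cluster 1 to 1.535 in cluster 3. With 1 library per genotype the difference between the classes was not tested.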

How the results depend on the processing

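Of 847 values of 60 log2 ratios under alternatives, 779 stayed inside the counting interval, 66 moved out of it and 2 reversed a call: by the per-cell gate Tnfsf13b was -0.2944 in subepithelial and -0.5867 in adventitial cells. A reversal was scored for called ratios only. Of the 60 ratios, 15 changed sign between settings. In fibroblast-like cells 1 member was higher, in place of 2, with a minimum of 10 CPM, with doublets kept, by the per-cell gate, and without cells holding leukocyte or erythrocyte UMIs; 2 were lower, in place of 1, with 0.1 CPM added, without those cells and with classes weighted alike, and 4 with no CPM minimum, when the median log2 ratio was -0.09146. Without cluster 10, whose markers are mixed, 0 were higher and 0 lower. In subepithelial cells 2 were higher with the looser cell filter (200 genes, 20% mitochondrial UMIs) and by the gate, and 1 was lower with 10 CPM. In lamina propria cells 1 was higher and 1 lower with 10 CPM, 4 were lower with no minimum, and 1 without leukocyte or erythrocyte UMIs or without cluster 10. In adventitial cells 1 was higher with ratios centred on the median gene, at resolution 2, with scaling within libraries and with 2 enriched markers, and 0 by the gate; 2 were lower when centred, with the looser filter, by the gate and with 2 enriched markers, and 0 with 10 CPM. With classes weighted alike, 1 signalling component was higher and 1 feedback gene lower, and 7 response genes were higher and 3 lower (0 lower without cluster 10). Beyond fewer or more genes passing a minimum, the causes were not tested. No paired analysis was possible because each genotype has 1 library.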
